A study of Homo sapiens with 12 samples.

Results

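The ABC transporters are a large family of membrane proteins, and 39 of the 45478 genes in the count table belong to its subfamilies A, B, C, D and G and were followed here. They were taken by gene symbol. The series holds mRNA-seq libraries of 2 clear cell renal cell carcinoma (ccRCC) cell lines and of their sunitinib-resistant derivatives, and the comparisons ask which transporter genes differ with resistance and with cell line. The groups are parental 786-O and parental A498, both deficient in the tumour suppressor VHL, and resistant 786-O and resistant A498, grown out of them under sunitinib, an inhibitor of receptor tyrosine kinases. Selection took 4 months or more than 20 passages, at 4 μM sunitinib for 786-O and at 2 μM for A498, and the drug was never withdrawn during it. The treatment field of all 12 libraries reads "none", and the parental groups received no selection. The title of every library also carries the tag "veh", whose meaning is not stated. The study calls each resistant line a clone, and each group carries 1 batch label of its own, so batch and group cannot be told apart. There were 3 libraries per group, and nothing says that they came from separate cultures, so the p-values below measure the spread between libraries, which may be technical.

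ABC transporters couple ATP hydrolysis to the movement of a substrate across a membrane. Some carry a pair of nucleotide-binding domains in a single chain, and others, such as ABCG2 and the D subfamily, work as dimers. Members such as P-glycoprotein (ABCB1), BCRP (ABCG2) and the multidrug resistance-associated proteins of subfamily C pump drugs and conjugates out of cells, and sunitinib is known to interact with ABCB1 and ABCG2. Others export cholesterol and phospholipids, work in mitochondria, lysosomes or peroxisomes, or regulate potassium channels. In the proximal tubule, the segment of the kidney from which ccRCC is thought to arise, several of them excrete organic anions, urate and xenobiotics.

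The results turn on ABCA2, ABCA3 and ABCC10, which were among the members higher in both resistant groups. They also turn on ABCC2, which was high only in parental A498 among the 4 groups. The 250 bases upstream of a transcription start of each gene are therefore shown from RefSeq (GRCh38.p14), 5′ to 3′. Of the 39 members, 31 had an entry in the RefSeq promoter table. The windows are chr9:137028923-137029172, minus strand for ABCA2, chr16:2340729-2340978, minus strand for ABCA3, chr6:43427291-43427540, plus strand for ABCC10, and chr10:99782390-99782639, plus strand for ABCC2. Where a gene had 2 starts, the window sharing the fewest bases with exons of its own gene was taken. The ABCC10 window shared 24 bases and the ABCA3 window 18 bases with such exons, and the other windows shared none. Capitals mark the GC box GGGCGG, the TATA box TATAAA, the CCAAT box and the E box CACGTG, searched on both strands.
ABCA2: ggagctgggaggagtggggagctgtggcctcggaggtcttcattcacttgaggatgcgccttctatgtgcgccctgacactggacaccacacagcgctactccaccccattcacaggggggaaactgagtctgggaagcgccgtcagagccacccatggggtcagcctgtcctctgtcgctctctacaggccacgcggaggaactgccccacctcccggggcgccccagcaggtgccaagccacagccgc
ABCA3: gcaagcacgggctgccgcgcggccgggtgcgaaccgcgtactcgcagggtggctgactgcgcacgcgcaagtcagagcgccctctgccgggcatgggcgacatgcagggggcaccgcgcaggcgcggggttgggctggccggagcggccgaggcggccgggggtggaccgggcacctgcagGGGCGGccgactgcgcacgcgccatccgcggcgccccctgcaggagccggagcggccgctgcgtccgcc
ABCC10: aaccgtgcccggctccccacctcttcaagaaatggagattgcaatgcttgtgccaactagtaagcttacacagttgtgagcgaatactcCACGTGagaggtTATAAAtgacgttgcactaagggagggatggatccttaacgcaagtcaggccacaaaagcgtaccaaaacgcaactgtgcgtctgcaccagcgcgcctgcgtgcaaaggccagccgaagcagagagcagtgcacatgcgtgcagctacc
ABCC2: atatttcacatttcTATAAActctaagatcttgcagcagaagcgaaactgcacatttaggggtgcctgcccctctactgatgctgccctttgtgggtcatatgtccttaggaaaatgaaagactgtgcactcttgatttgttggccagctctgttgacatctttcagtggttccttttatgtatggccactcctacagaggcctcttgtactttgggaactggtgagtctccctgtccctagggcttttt
The ABCA3 window held GGGCGG, the ABCC10 window TATAAA as well as CACGTG, the ABCC2 window TATAAA, and the ABCA2 window none of these letters. Both motifs in the ABCC10 window lie past the outermost start of that gene, chr6:43427366, and upstream of a later start only. Over all 35116 promoter entries of the same length, 42.6% held the GC box, 10.7% the TATA box, 32% the CCAAT box and 6.34% the E box. The windows of ABCA2, ABCA3 and ABCC10 had no searched motif in common, and other members higher in both resistant groups are not shown. Their GC content was 65.2% for ABCA2, 79.2% for ABCA3 and 53.6% for ABCC10, and that of ABCC2 was 45.6% with 1 CpG.

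Library totals ran from 40845091 to 47972092 counts in parental 786-O, from 42643735 to 46888482 in resistant 786-O, from 21686648 to 34951585 in parental A498 and from 20042519 to 25831163 in resistant A498. The libraries labelled as resistant A498 resembled parental 786-O and resistant 786-O more than parental A498: their median correlation of log2 CPM over genes reached 0.982 with resistant 786-O and 0.951 with parental 786-O but 0.870 with parental A498, the parental lines correlating at 0.868. Whether these libraries descend from A498 was not tested, and if they do not, their difference from parental A498 is one between lines. Differences between resistant A498 and parental A498 are therefore given below, for most tested members, with those between resistant A498 and parental 786-O. Genes of the related lists are mostly given against parental A498 alone. Replicate 2 of resistant 786-O stood apart from the other 2 libraries of its group, with a mean chi-square per gene of at least 43.7 against 7.19 between those 2. The renal markers PAX8, VIM, KRT8 and KRT18 were present in every group, while CA9, a hypoxia-induced ccRCC marker, was at or under 3 counts in every library outside parental A498. The T cell markers CD3D, CD3E, CD3G, CD2, CD8B, PTPRC and GZMB were at or under 3 counts in every library, and the summed level of the 10 T cell markers, 27.5 to 208 CPM over the libraries, lay almost wholly in IL7R.

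Levels are given as CPM, counts-per-million of the normalised library size. A member with a mean of at least 1 CPM was called expressed, and one with at most 3 counts in every library of a group was called at the floor. By this measure 25 members were expressed in parental A498 and 23 in each of parental 786-O, resistant 786-O and resistant A498. There were 22 expressed in all 4 groups, 4 expressed in some groups (ABCB4, ABCB5, ABCB6 and ABCC6) and 13 in none. At the floor in all 4 groups were ABCA6, ABCA9, ABCB11, ABCC8, ABCC12, ABCG5 and ABCG8, among them the bile salt export pump (ABCB11), a regulatory subunit of pancreatic potassium channels (ABCC8) and the sterol exporter pair ABCG5 and ABCG8. A filter on low counts kept 27 members for testing, and the 12 left out had no more than 15 counts in any library and a group mean of at most 0.347 CPM.

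**Figure D1:**
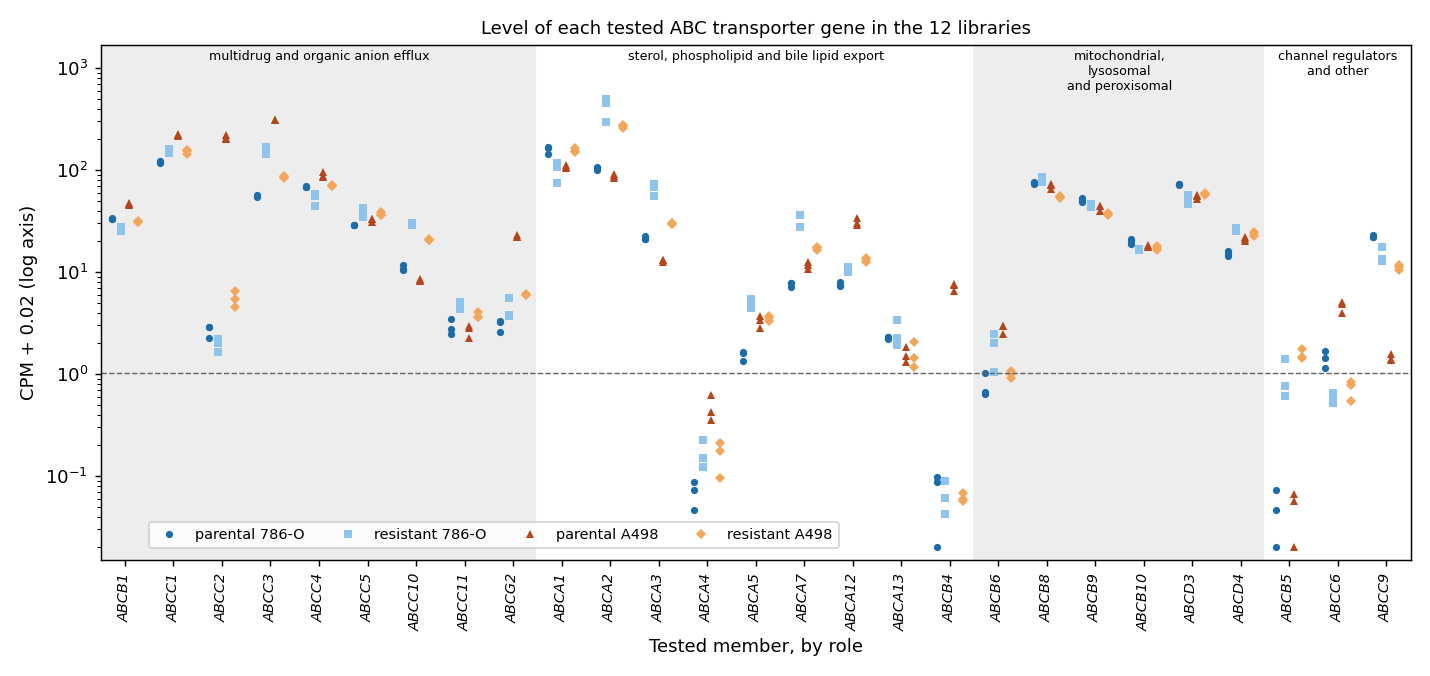
CPM + 0.02 on a log axis (vertical) of the 27 tested members (horizontal, ordered by role), with 1 point for each of the 3 libraries of a group and a dashed line at 1 CPM. The parental A498 points of ABCC2 and ABCB4 lie far above those of the other 3 groups. Both resistant groups lie above both parental groups for ABCA2, ABCA3, ABCA7, ABCC10 and ABCB5, and by smaller margins for ABCC5, ABCC11 and ABCD4.

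Per kilobase of exon (RPKM), the leading members differed between groups. In parental 786-O, the cholesterol exporter ABCA1 (14.0 ± 1.15 RPKM, SD, n = 3) and MRP1, ABCC1 (13.8 ± 0.236), stood first. In parental A498 the 3 leading members were organic anion exporters, ABCC3 at 32.3 ± 0.152, ABCC2 at 26.6 ± 1.15 and ABCC1 at 25.3 ± 0.660 RPKM. In both resistant groups the lysosomal lipid transporter ABCA2 led, at 36.2 ± 9.16 RPKM in resistant 786-O and 23.3 ± 0.821 in resistant A498, with ABCC1 second at 17.4 RPKM in each.

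Summed over the 39 members, the family reached 888 ± 9.40 CPM in parental 786-O, 1346 ± 182 in resistant 786-O, 1421 ± 19.4 in parental A498 and 1108 ± 27.4 in resistant A498 (SD, n = 3). The 9 multidrug and organic anion exporters took 327 ± 3.66, 473 ± 32.2, 942 ± 20.7 and 412 ± 11.1 CPM in the same order, so parental A498 held the most and parental 786-O the least. The 18 lipid exporters ran differently, at 304 ± 10.8, 634 ± 141, 264 ± 3.10 and 490 ± 16.3 CPM. Both resistant groups lay above both parental groups there, and ABCA2 made up much of the difference. Without it, a sum added after the data were seen, the other 17 reached 200 ± 13.5, 218 ± 36.0, 177 ± 4.69 and 223 ± 6.99 CPM. The libraries of resistant 786-O then ran from 177 to 245 CPM and overlapped both parental groups, whose libraries ran from 174 to 211, while those of resistant A498, 217 to 231, did not. The sum of the 7 mitochondrial, lysosomal and peroxisomal members varied least in proportion, from 192 ± 3.43 CPM in resistant A498 to 234 ± 4.17 in parental 786-O.

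**Figure D2:**
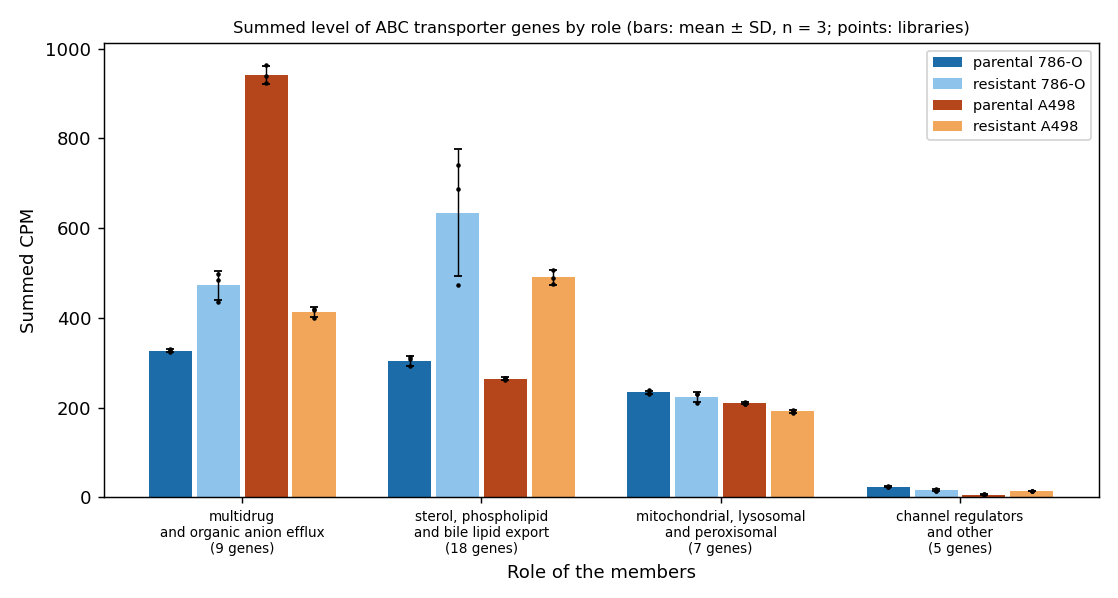
Summed CPM (vertical) of the members of each role (horizontal) in the 4 groups, with bars for the mean and SD of 3 libraries and points for the libraries. The multidrug and organic anion exporters were highest in parental A498 (942 CPM), and the lipid exporters in resistant 786-O (634 CPM) and resistant A498 (490 CPM), the lead of resistant 786-O resting on ABCA2.

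Each adjusted p below comes from the quasi-likelihood test of edgeR, corrected over 19929 genes by the procedure of Benjamini and Hochberg. Between resistant 786-O and parental 786-O, 25 of the 27 tested members were called at an adjusted p under 0.05, 16 higher and 9 lower in resistant 786-O, where 68.5% of all genes tested were called (35% higher, 33.5% lower). Beyond 2-fold, 9 were higher and 1 lower, against 16.2% and 5.76% of all genes. Between resistant A498 and parental A498, 23 were called, 10 higher and 13 lower, against 72.7% of all genes (36.3% higher, 36.4% lower), and beyond 2-fold 5 were higher and 8 lower, against 14.3% and 16.5%. The median log2 fold change of the tested members was 0.45 in resistant 786-O against parental 786-O and -0.04 in resistant A498 against parental A498, beside 0.03 and -0.00 for all genes tested. ABCA4, ABCB4 and ABCB5, at the floor in some groups, keep their side of these medians when set at their bounds. With GC and length trends removed, the member medians were 0.28 and -0.25, beside -0.01 and -0.09 for all genes. Scaled by library size alone, the median of all genes in resistant 786-O against parental 786-O moved to 0.18 and the share of calls that were higher from 51.1% to 62.5%, with 16 members higher and 6 lower. In bulk libraries, fewer cells of a type and less RNA per cell cannot be told apart.

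The difference between the 2 resistance changes was called for 20 of the 27 tested members, near the share of 68.3% over all genes. Of these 20, 16 were more negative in A498 (34.4% of all genes) and 4 more positive (33.9%). Resistant A498 against parental 786-O gave 20 called members, 14 higher and 6 lower, against 63.6% of all genes (31.6% higher, 32.1% lower). With library size alone these were 15 and 5, the share of all calls that were higher moving from 49.6% to 62.6%. Resistant A498 against resistant 786-O gave 18, 7 higher and 11 lower, against 46.1% (23% in each direction). With GC and length trends removed these were 3 and 9, the share of all calls that were higher moving from 50% to 51.7%. Beyond 2-fold, only ABCC2 (higher in resistant A498) and ABCA3 (lower) were called between the resistant groups, where 2.91% of all genes were higher and 4.4% lower, 7.3% in all. Between the parental lines 22 members were called, 8 higher and 14 lower in parental 786-O, against 74.2% of all genes (38.2% and 36.1%). The comparisons of resistant A498 with parental A498 and with parental 786-O share the resistant A498 libraries, and those of resistant 786-O and resistant A498 with parental 786-O share the parental 786-O libraries.

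**Figure D3:**
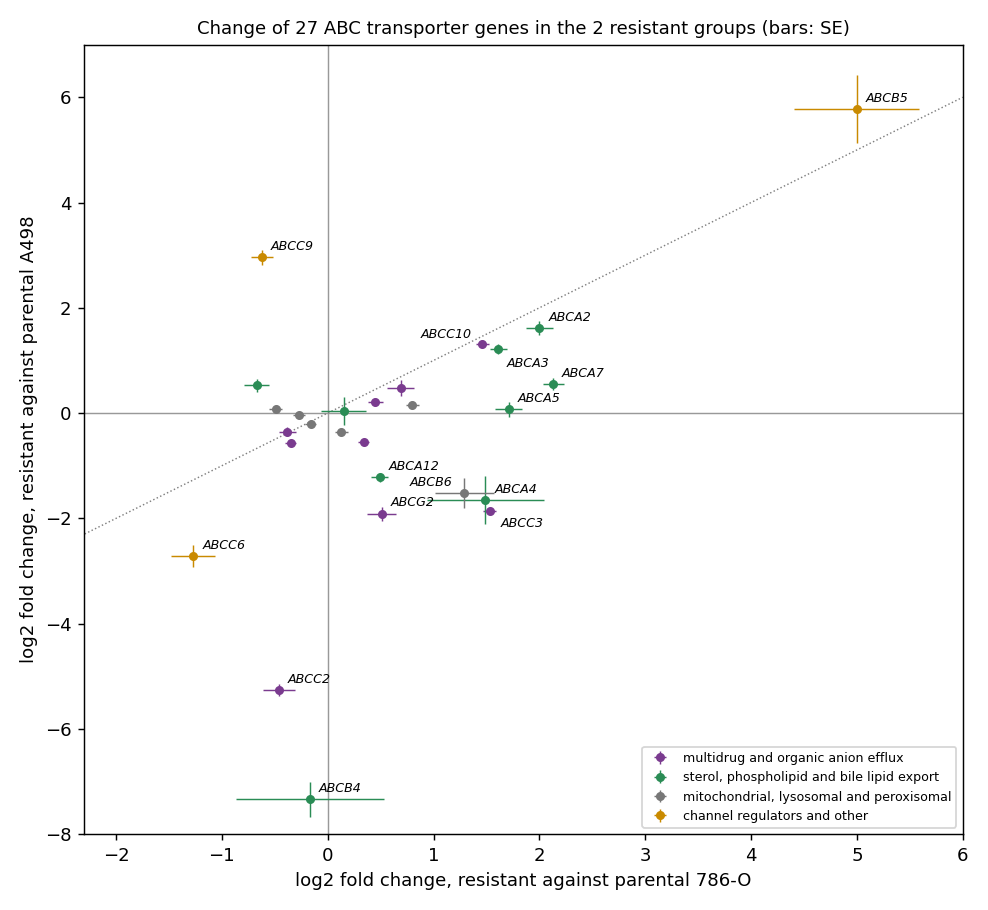
log2 fold change of the 27 tested members in resistant 786-O against parental 786-O (horizontal) and in resistant A498 against parental A498 (vertical), with SE bars, colours for roles and a dotted line of equal change. ABCA2, ABCA3 and ABCC10 lie in the upper right, ABCC3 and ABCG2 rose in resistant 786-O and fell in resistant A498, and ABCC9 fell in resistant 786-O and rose in resistant A498.

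Of the 9 multidrug and organic anion exporters, all tested, 6 were higher and 3 lower in resistant 786-O than in parental 786-O, and 3 were higher and 6 lower in resistant A498 than in parental A498. Over all genes tested the shares were 35% higher and 33.5% lower in 786-O and 36.3% and 36.4% in A498, which also holds for the counts of the other lists below. The best known drug exporters, ABCB1, ABCG2 and ABCC1, all fell in resistant A498 against parental A498. ABCB1 (ENSG00000085563.15, chr7:87503017-87713323 on the minus strand), which expels hydrophobic drugs, stood at 33.5, 33.9 and 33.4 CPM in the parental 786-O libraries and at 25.2, 25.8 and 27.9 in resistant 786-O. In parental A498 it stood at 47.3, 46.6 and 45.2 CPM and in resistant A498 at 31.6, 31.1 and 31.0. Both resistant groups lay below their own parental line, without overlap. ABCB1 fell by 0.35 on the log2 scale in resistant 786-O (SE 0.05, edgeR adjusted p = 1.9e-05) and by 0.57 in resistant A498 (SE 0.05, adjusted p = 1e-07). Against parental 786-O, resistant A498 gave -0.11 (SE 0.05, adjusted p = 0.09). With GC and length trends removed the change was -0.18 in resistant 786-O and -0.87 in resistant A498 against parental A498. Resistant A498 against parental 786-O then gave -0.15 (edgeR adjusted p = 0.025), but 0.05 with library size alone (adjusted p = 0.45).

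ABCG2 (ENSG00000118777.12, chr4:88090150-88231628 on the minus strand), an exporter of drugs and urate, stood at 3.31, 2.59 and 3.22 CPM in parental 786-O, at 3.68, 5.54 and 3.78 in resistant 786-O, at 22.3, 23.1 and 22.1 in parental A498 and at 6.04, 5.89 and 5.95 in resistant A498. The parental A498 libraries lay above all others, and the resistant 786-O libraries lay above those of parental 786-O by a small margin. ABCG2 rose by 0.51 (log2, SE 0.14, edgeR adjusted p = 0.0062) in resistant 786-O, or by 0.29 without replicate 2 of that group (adjusted p = 0.022). It fell by 1.91 in resistant A498 against parental A498 (SE 0.13, adjusted p = 4.3e-09) and was 0.97 higher than in parental 786-O (SE 0.15, adjusted p = 4.3e-05).

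ABCC2 (ENSG00000023839.12, chr10:99782640-99852594 on the plus strand) is MRP2, which moves conjugates across the apical membrane of the proximal tubule and the hepatocyte. Its level was 219, 206 and 201 CPM in parental A498. In resistant A498 it was 4.55, 6.46 and 5.48 CPM, in parental 786-O 2.21, 2.87 and 2.88, and in resistant 786-O 2.17, 1.63 and 2.01. The resistant A498 mean was 2.64% of the parental A498 mean and 207% of the parental 786-O mean. ABCC2 fell by 5.26 on the log2 scale in resistant A498 against parental A498 (SE 0.11, edgeR adjusted p = 3.7e-15), was 1.03 higher than in parental 786-O (SE 0.14, adjusted p = 9.7e-06) and fell by 0.46 in resistant 786-O (SE 0.15, adjusted p = 0.012). The last of these calls was lost with library size alone (-0.31, adjusted p = 0.076), with counts thinned to the smallest library (-0.28, adjusted p = 0.2), with only the 2 groups fitted (-0.42, adjusted p = 0.055) and without replicate 3 of parental 786-O (-0.39, adjusted p = 0.056).

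ABCC3 (ENSG00000108846.16, chr17:50634777-50692253 on the plus strand) is MRP3, the basolateral exporter of glucuronides. It stood at 54.8, 57.5 and 55.9 CPM in parental 786-O and rose to 169, 145 and 170 in resistant 786-O. In parental A498 it stood at 312, 309 and 311 CPM and in resistant A498 at 82.7, 88.4 and 86.2. The 4 groups did not overlap, and resistant A498 lay below parental A498 but above parental 786-O. The log2 fold change was 1.53 in resistant 786-O (SE 0.06, edgeR adjusted p = 1.3e-11) and -1.86 in resistant A498 against parental A498 (SE 0.06, adjusted p = 5.1e-13), while resistant A498 stood 0.61 above parental 786-O (SE 0.06, adjusted p = 3e-07). In the same order, the values with GC and length trends removed were 1.22, -1.76 and 0.45.

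ABCC1 (ENSG00000103222.19, chr16:15949138-16143257 on the plus strand), MRP1, exports glutathione conjugates and was abundant in every group. It stood at 118, 122 and 121 CPM in parental 786-O, at 149, 146 and 161 in resistant 786-O, at 227, 222 and 215 in parental A498 and at 145, 155 and 156 in resistant A498. The resistant groups overlapped each other and lay between the parental lines. The log2 fold change was 0.34 in resistant 786-O (SE 0.05, edgeR adjusted p = 1.8e-05) and -0.54 in resistant A498 against parental A498 (SE 0.05, adjusted p = 7.8e-08), and it was 0.34 in resistant A498 against parental 786-O (SE 0.05, adjusted p = 2.1e-05). With the trends of GC content and gene length removed, the change in resistant 786-O was 0.10 (adjusted p = 0.039).

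ABCC10 (ENSG00000124574.15, chr6:43427366-43450427 on the plus strand), MRP7, a broad-range exporter, was the exporter of this role that rose past 2-fold in both resistant groups. Its libraries read 10.7, 11.7 and 10.3 CPM in parental 786-O, 30.4, 28.8 and 30.5 in resistant 786-O, 8.25, 8.55 and 8.13 in parental A498 and 20.6, 21.2 and 20.4 in resistant A498. No libraries overlapped between any of the 4 groups. The log2 fold change was 1.46 in resistant 786-O (SE 0.06, edgeR adjusted p = 5.4e-11), 1.32 in resistant A498 against parental A498 (SE 0.07, adjusted p = 1.9e-10) and 0.93 in resistant A498 against parental 786-O (SE 0.07, adjusted p = 1.1e-08). In the same order, the values with GC and length trends removed were 1.14, 1.44 and 0.78.

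The other 3 exporters moved less. ABCC4, MRP4, an exporter of cyclic nucleotides, fell by 0.38 in resistant 786-O and by 0.35 in resistant A498 against parental A498, from a mean of 68.6 CPM in parental 786-O and 89.3 in parental A498. ABCC5, MRP5, rose by 0.45 and 0.21, though the latter was 0.01 with GC and length trends removed (edgeR adjusted p = 0.84). ABCC11, MRP8, rose by 0.69 and 0.48 at 2.65 to 4.62 CPM. These 3 changed in the same direction in both lines, with each resistant group taken against its own parental line. Against parental 786-O, resistant A498 gave 0.03 for ABCC4 (edgeR adjusted p = 0.73), 0.36 for ABCC5 (0.0005) and 0.39 for ABCC11 (0.029). The ABCC11 call was lost with GC and length trends removed (0.24, adjusted p = 0.16). It was also lost without replicate 2 or 3 of parental 786-O or replicate 3 of resistant A498 (0.13, 0.088 and 0.083).

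Among the 18 lipid exporters, 9 were tested. Of these, 6 were higher and 1 lower in resistant 786-O than in parental 786-O, and 4 were higher and 3 lower in resistant A498 than in parental A498. ABCA2 (ENSG00000107331.17, chr9:137007234-137028915 on the minus strand), a lysosomal lipid transporter, had the highest level per kilobase of any member in both resistant groups. It stood at 107, 104 and 101 CPM in parental 786-O, 455, 297 and 496 in resistant 786-O, 83.7, 86.8 and 90.8 in parental A498 and 258, 268 and 277 in resistant A498. Replicate 2 of resistant 786-O was the lowest of its group, yet it lay above every library of the other 3 groups. ABCA2 rose by 2.00 on the log2 scale in resistant 786-O (SE 0.13, edgeR adjusted p = 4.2e-09), by 1.62 in resistant A498 against parental A498 (SE 0.13, adjusted p = 2.7e-08) and by 1.36 against parental 786-O (SE 0.13, adjusted p = 2.7e-07). The first of these was 1.33 with GC and length trends removed, ABCA2 having the highest exon GC content of the members, 64.8%.

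ABCA3 (ENSG00000167972.14, chr16:2275881-2340746 on the minus strand) loads phospholipid into the lamellar bodies of the lung. It stood at 21.0, 21.2 and 22.6 CPM in parental 786-O, 68.9, 56.3 and 73.0 in resistant 786-O, 12.4, 13.3 and 13.1 in parental A498 and 30.6, 29.7 and 29.9 in resistant A498. The 4 groups did not overlap. ABCA3 rose by 1.61 in resistant 786-O (SE 0.08, edgeR adjusted p = 2.1e-10), by 1.22 in resistant A498 against parental A498 (SE 0.09, adjusted p = 7.3e-09) and by 0.48 against parental 786-O (SE 0.08, adjusted p = 0.00013). These were 1.19, 1.36 and 0.28 with GC and length trends removed.

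ABCA7 (ENSG00000064687.13, chr19:1039997-1065572 on the plus strand), a phospholipid transporter linked to Alzheimer's disease, stood at 7.86, 7.73 and 7.12 CPM in parental 786-O and at 35.9, 27.5 and 36.0 in resistant 786-O. In parental A498 it stood at 10.8, 12.6 and 11.6 CPM and in resistant A498 at 16.3, 17.5 and 17.0. Again both resistant groups lay above both parental lines. The log2 fold change was 2.13 in resistant 786-O (SE 0.10, edgeR adjusted p = 1.4e-10), 0.55 in resistant A498 against parental A498 (SE 0.11, adjusted p = 0.00026) and 1.16 against parental 786-O (SE 0.11, adjusted p = 1.8e-07). These were 1.58, 0.68 and 0.88 with GC and length trends removed.

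ABCA1 (ENSG00000165029.16, chr9:104781006-104928155 on the minus strand), which passes cholesterol to apolipoprotein A-I, moved in opposite directions. It stood at 145, 163 and 170 CPM in parental 786-O, 108, 75.0 and 117 in resistant 786-O, 113, 105 and 107 in parental A498 and 152, 154 and 164 in resistant A498. Resistant A498 overlapped parental 786-O, and resistant 786-O overlapped parental A498. ABCA1 fell by 0.67 in resistant 786-O (SE 0.12, edgeR adjusted p = 0.00012) and rose by 0.53 in resistant A498 against parental A498 (SE 0.12, adjusted p = 0.00085), while against parental 786-O the value was -0.02 (SE 0.12, adjusted p = 0.87). The rise was 0.25 with GC and length trends removed. Its partner in cholesterol efflux, ABCG1 (ENSG00000160179.18, chr21:42199689-42297244 on the plus strand), lay near the floor, with 5, 9 and 13 counts in parental A498, none in parental 786-O and no more than 2 in any library of a resistant group, and it was not tested.

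ABCB4 (ENSG00000005471.17, chr7:87401696-87480435 on the minus strand), the phosphatidylcholine exporter of bile, was present in parental A498 alone, at 7.38, 6.56 and 7.69 CPM (255, 141 and 209 counts). It was at the floor in the other 3 groups, with 0, 3 and 3 counts in parental 786-O, 2, 3 and 1 in resistant 786-O and 1 in each resistant A498 library. Taken at the floor of 3 counts per library, it was at least 58-fold lower in resistant A498 and at least 97-fold lower in parental 786-O than in parental A498 (edgeR adjusted p = 3.5e-11 and 7e-12). ABCA12 (ENSG00000144452.15, chr2:214931542-215138626 on the minus strand), the keratinocyte lipid transporter, stood at 33.6, 29.9 and 29.0 CPM in parental A498. It stood at 12.6, 13.7 and 13.4 in resistant A498, at 7.21, 7.99 and 7.48 in parental 786-O and at 10.7, 9.98 and 11.1 in resistant 786-O. It rose by 0.49 in resistant 786-O (SE 0.08, adjusted p = 7.2e-05), fell by 1.22 in resistant A498 against parental A498 (SE 0.08, adjusted p = 1.6e-09) and was 0.81 above parental 786-O (SE 0.08, adjusted p = 6e-07).

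The remaining 3 tested lipid exporters were low. ABCA5 rose from 1.51 ± 0.166 to 4.95 ± 0.509 CPM in resistant 786-O (log2 1.71, SE 0.13, edgeR adjusted p = 2.8e-08) and read 3.30 ± 0.428 in parental A498 and 3.49 ± 0.199 in resistant A498 (0.07, adjusted p = 0.67). Against parental 786-O, ABCA5 was 1.20 higher in resistant A498 (SE 0.15, edgeR adjusted p = 3.7e-06). ABCA5 shares 318 exon bases with the neighbouring ABCA10 on the same strand. ABCA4, the photoreceptor retinoid importer, had 1 to 14 counts per library and was expressed in no group. It was at the floor in parental 786-O, and its fold in resistant 786-O, at least 1.97, was called without reaching 2 at that bound. The call (edgeR adjusted p = 0.026) was lost with no filter (0.069), with GC and length trends removed (0.052), with DESeq2 (0.075) and without replicate 1 or 2 of parental 786-O or replicate 2 of resistant 786-O (0.056, 0.096 and 0.13). In resistant A498 against parental A498 it fell by 1.65 (adjusted p = 0.0041). ABCA13 read 1.53 to 2.50 CPM and was called in neither resistance comparison.

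**Figure D4:**
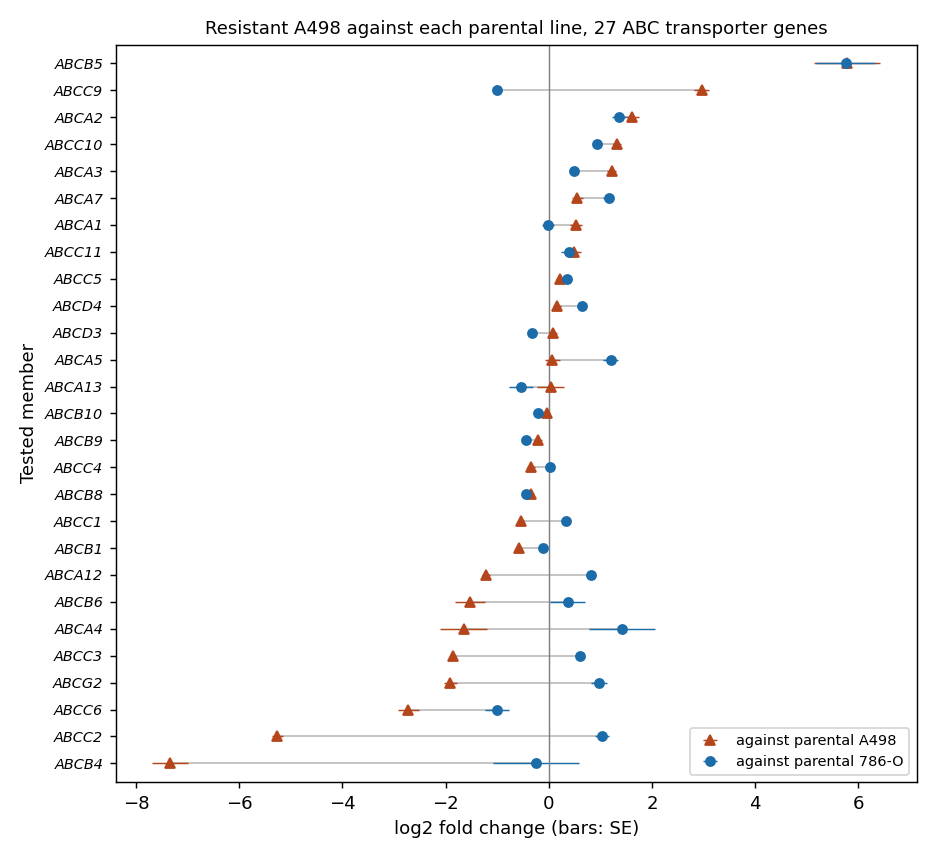
log2 fold change with SE of the 27 tested members (vertical) in resistant A498 against parental A498 (triangles) and against parental 786-O (circles). ABCC2 lies at -5.26 against parental A498 and at 1.03 against parental 786-O, while ABCA2, ABCA3, ABCA7 and ABCC10 lie above 0 against both.

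Of the 5 remaining members with channel-linked or other roles, 3 were tested. ABCC9 (ENSG00000069431.11, chr12:21797389-21942543 on the minus strand), the SUR2 subunit of ATP-sensitive potassium channels, stood at 23.0, 22.2 and 22.1 CPM in parental 786-O and at 13.5, 17.5 and 12.9 in resistant 786-O. In parental A498 it stood at 1.36, 1.40 and 1.55 CPM and in resistant A498 at 11.6, 10.5 and 11.3. Resistant A498 thus lay much nearer to the 786-O groups than to parental A498. ABCC9 fell by 0.62 in resistant 786-O (SE 0.10, edgeR adjusted p = 4.1e-05), rose by 2.96 in resistant A498 against parental A498 (SE 0.14, adjusted p = 7e-11) and fell by 1.01 against parental 786-O (SE 0.10, adjusted p = 5.6e-07). KCNJ8, which codes for a pore subunit that pairs with SUR2, rose by 1.12 in resistant 786-O and by 3.45 in resistant A498 against parental A498.

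ABCB5, a relative of ABCB1 known from melanoma, appeared in both resistant groups. It had 2, 1 and 0 counts in parental 786-O and 36, 61 and 27 in resistant 786-O, and 0, 1 and 1 in parental A498 and 39, 36 and 36 in resistant A498. The parental groups were at the floor, and against it ABCB5 was at least 12.2-fold higher in resistant 786-O than in parental 786-O (edgeR adjusted p = 2.7e-06), and in resistant A498 at least 13.6-fold higher than in parental A498 and at least 20.6-fold higher than in parental 786-O (adjusted p = 9.1e-07 and 4.5e-07). Its level stayed low, at 0.908 ± 0.430 CPM in resistant 786-O and 1.53 ± 0.170 in resistant A498. ABCC6, whose product releases ATP and has near-identical pseudogenes, so that its counts are uncertain, fell by 1.27 in resistant 786-O and by 2.72 in resistant A498 against parental A498, where its mean was 4.61 ± 0.555 CPM. In resistant A498 ABCC6 was 1.00 lower than in parental 786-O (SE 0.23, edgeR adjusted p = 0.0014).

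Of the 7 members of mitochondria, lysosomes and peroxisomes, none tested at 5 CPM or more was called beyond 2-fold with resistance in either line. In resistant 786-O 3 of the 6 tested were higher and 3 lower than in parental 786-O, and in resistant A498 1 was higher and 3 lower than in parental A498. ABCD4, which releases cobalamin from lysosomes, rose by 0.80 in resistant 786-O (edgeR adjusted p = 3.1e-08) and by 0.16 in resistant A498 against parental A498 (adjusted p = 0.034), from 15.1 and 21.2 CPM. The second call of ABCD4 was lost with DESeq2 size factors (0.14, adjusted p = 0.056), at least 10 counts in every library (0.062), thinning (0.097), DESeq2 (0.085) and without replicate 1 or 2 of parental A498 or replicate 2 of resistant A498 (0.068, 0.11 and 0.056). ABCD3, the peroxisomal importer PMP70, fell by 0.49 in resistant 786-O and gave 0.08 in resistant A498 against parental A498 (adjusted p = 0.32), a value that turned to -0.22 with GC and length trends removed. ABCB8 and ABCB10, of the mitochondrial inner membrane, read 54.8 to 82.1 and 16.5 to 19.9 CPM over the groups. The change of ABCB8 in resistant 786-O was 0.13 (adjusted p = 0.049). It was not called without any 1 of the 3 parental libraries or without replicate 1 or 3 of resistant 786-O, and was -0.26 with those trends removed. ABCB9, a lysosomal peptide transporter, read 37.1 to 50.8 CPM and fell by 0.16 and 0.20 in the resistant groups, the first being -0.02 with library size alone (adjusted p = 0.74) and the second -0.10 with GC and length trends removed (adjusted p = 0.14). The first call was also lost with at least 10 counts in every library and with only the compared groups fitted (0.083 each). It was lost too without replicate 1 of parental 786-O (0.062) or replicate 1 of resistant 786-O (0.1). The second call was also lost with no filter (0.071) and without replicate 1 of resistant A498 (0.05). The exons of ABCB9 overlap genes on the opposite strand. ABCB6, linked to porphyrin transport, rose by 1.29 in resistant 786-O and fell by 1.52 in resistant A498 against parental A498 (adjusted p = 0.00076 and 0.00026), at 0.756 to 2.77 CPM, and 54.6% of its exon bases are shared on the same strand with a readthrough gene, so its counts are uncertain. Against parental 786-O, resistant A498 gave 0.37 for ABCB6 (edgeR adjusted p = 0.35), 0.65 for ABCD4 (4.9e-07) and -0.32 for ABCD3 (0.00054). The same comparison gave -0.45 for ABCB8 (8.4e-06), -0.45 for ABCB9 (4.6e-06) and -0.21 for ABCB10 (0.0096). The ABCB10 call was lost with library size alone (adjusted p = 0.44) and without replicate 3 of resistant A498 (0.091).

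TAP1 and TAP2, the antigen peptide transporters of subfamily B, were both higher in both resistant groups, TAP1 by 1.99 in resistant 786-O and 1.39 in resistant A498 against parental A498 and TAP2 by 0.16 and 0.55. Of the 4 soluble ABC proteins, which carry no membrane spans, 3 were lower in resistant 786-O, and 1 was higher and 2 lower in resistant A498 against parental A498. ABCE1 fell by 0.77 and 0.98 and ABCF2 by 0.88 and 0.86, in the same order, while ABCF1 fell by 0.26 and rose by 0.34 and ABCF3 gave 0.05 and -0.10, called in neither. Of 10 cholesterol trafficking partners, 6 were higher and 2 lower in resistant 786-O, and 7 higher and 2 lower in resistant A498 against parental A498. NPC2, which hands cholesterol to NPC1 in the lysosome, rose by 1.49 and 0.63, and NPC1 by 0.42 and 0.78. Of 10 LXR receptors and targets outside the family, 4 were higher and 2 lower in resistant 786-O, and 4 higher and 4 lower in resistant A498. Of 10 genes of haem handling, 3 were higher and 4 lower in resistant 786-O and 5 higher and 5 lower in resistant A498 against parental A498, and of 7 peroxisomal genes 1 was higher and 2 lower, and 4 higher and 3 lower.

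Of 11 xenobiotic receptors and regulators, NR1I2, the pregnane X receptor that induces ABCB1 in liver, was at the floor in all groups, and the other 10 were tested. In resistant 786-O 4 were higher and 4 lower than in parental 786-O. In resistant A498 2 were higher and 8 lower than in parental A498, among them NR1H4, the bile acid receptor, which fell by 2.52, and HNF4A, which fell by 2.98. Both were higher in resistant than in parental 786-O: NR1H4 rose by 2.95 (edgeR adjusted p = 9.8e-08), and HNF4A went from 0, 0 and 1 counts to 36, 41 and 26 (adjusted p = 4.5e-06). Against parental 786-O, 5 of the 10 were higher and 3 lower. NR1H4 stood at 17.8 CPM in parental A498, 3.13 in resistant A498, 2.187 in resistant 786-O and 0.275 in parental 786-O.

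Of 23 SLC transporters of drug uptake and exchange, 16 were tested. In resistant 786-O 8 were higher and 2 lower than in parental 786-O, and in resistant A498 7 were higher and 5 lower than in parental A498. SLC22A3, an organic cation transporter, read 51.9 CPM in parental A498, 1.24 in parental 786-O and 0.0679 and 0.0663 in resistant 786-O and resistant A498, and SLCO2B1, an organic anion uptake carrier, read 77.9 CPM in parental A498, 0.544 in parental 786-O, 5.04 in resistant 786-O and 1.04 in resistant A498. SLCO2B1 rose by 3.16 in resistant 786-O and fell by 6.23 in resistant A498 against parental A498.

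Across the 12 libraries, which form 4 groups and so share most of their pattern by group, the genes nearest to a member by Pearson's r of log2 CPM were NFIB for ABCC2 (0.9968), PHKA1 for ABCB1 (0.9935), SH2D3A for ABCC3 (0.9956), LNCOC1 for ABCG2 (0.9944) and RASGRP1, the nearest with a symbol, for ABCA2 (0.9923), among 12857 genes searched. Within the family, ABCA2 followed ABCC10 (r = 0.983) and ABCA3 (0.937) over the same libraries.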

How the data were processed

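Poly(A) RNA of 12 libraries was sequenced after TruSeq Stranded mRNA preparation. The authors deposited raw gene counts, 1 whole number per gene and library and not normalised, in 1 table. The submitters' processing notes name bcl2fastq 2.19.0, Trimmomatic 0.36.6, HISAT2 2.1.0 and featureCounts 1.6.3 with GRCh38/hg38. The methods give GENCODE 33 and strand-specific counting, so genes overlapping on the same strand, and near-identical copies, can split or lose reads. Libraries were matched to groups by their labels. Differences were fitted by edgeR 4.0.16 in R 4.3.3 (filterByExpr, which left 19929 genes, TMM, glmQLFit and glmQLFTest, all 12 libraries in 1 model of 4 groups, prior count 0.125), with DESeq2 1.42.0 as an alternative and tables and figures made in Python 3.11.15 (pandas 2.3.3, matplotlib 3.10.9). Calls were made at 0.05 after Benjamini-Hochberg correction for every gene kept. CPM uses the TMM library size, and RPKM the exon union length in GENCODE 44 of the same assembly, which also gave positions and GC content for 45283 of the 45478 genes. Folds against a group at the floor use 3 counts per library. SE and SD reflect the spread between libraries, which may be technical, and the floor is a limit on counts alone.

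Members were given their value in every library where the mean was at least 5 CPM in a group and a change of at least 2-fold was called in any of 6 comparisons, with ABCB1, ABCG2, ABCC1, ABCA1 and ABCG1 added. The members and the lists of related genes were chosen with earlier results of these data known. The study tested raw counts of selected genes in pairs of groups without adjustment, and that test was run as an alternative. The other alternatives were another scaling, filter, prior count, depth or set of libraries, a replicate block, and removal of GC and length trends. On simulated counts for resistant 786-O against parental 786-O with 17610 genes, the procedure recovered 194 of 200 genes changed 2-fold and called 14 others. Those 200 were the only genes changed there, while 68.5% of genes were called in the measured comparison of these groups. The simulation therefore cannot show how the procedure, its scaling included, performs where most genes change.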

Additional observations from a re-analysis of the deposited data

Results flagged for a closer look

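The interaction test of edgeR called a difference in the change with resistance between the 2 lines for 20 of the 27 tested members. This is near the share of 68.3% over all genes tested, so the count does not set the members apart. Given as the log2 change in resistant A498 against parental A498 minus that in resistant 786-O against parental 786-O, the difference was 3.58 for ABCC9 and 1.20 for ABCA1. It was negative for the other named members called: -7.17 for ABCB4, -4.80 for ABCC2, -3.38 for ABCC3, -2.42 for ABCG2, -1.71 for ABCA12, -1.58 for ABCA7, -0.88 for ABCC1, -0.39 for ABCA3 and -0.22 for ABCB1. With GC and length trends removed the value was 0.17 for ABCA3 and -0.69 for ABCB1. The call of ABCB1 was lost with no filter on low counts (-0.17, adjusted p = 0.25) and without replicate 3 of resistant 786-O or replicate 2 or 3 of resistant A498 (adjusted p = 0.05, 0.052 and 0.053). The value of ABCB4 rests on 3 groups at the floor. The resistant A498 libraries resembled 786-O more than parental A498, and the part of this in these differences was not tested.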

How the results depend on the processing

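Members called ranged over the alternatives fitted by edgeR or DESeq2 at the same threshold from 22 to 26 in resistant against parental 786-O, from 19 to 25 in resistant against parental A498, from 19 to 21 for the difference, from 19 to 27 between the parental lines, from 19 to 24 in resistant A498 against parental 786-O and from 12 to 19 between the resistant groups. Without 1 library each they ranged from 23 to 25, 22 to 24, 18 to 23, 20 to 23, 20 to 22 and 15 to 20. A log2 change of at least 1 left 10, 13, 12, 10, 6 and 2. The shares of all genes beyond 2-fold are given above for the resistance comparisons and between the resistant groups. For the rest no such share is given, so those counts cannot be set against all genes. The test of the study on raw counts, without adjustment, called 13 and 11 in the resistance comparisons, again with no share of all genes given. It and the fit of 2 groups alone gave no value for the difference. Replicate numbers did not pair the samples (correlation of deviations -0.25 to 0.11), and a fit with the replicate number as a block called 24, 23, 19, 22, 20 and 19 members.

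The signs that turned were these, and the cause was not tested. With GC and length trends removed, with or without the replicate block, they were ABCB8 in resistant against parental 786-O (-0.26), ABCA5 (-0.25), ABCA13 (-0.33, or -0.32 with the block) and ABCD3 (-0.22) in resistant against parental A498, ABCC4 in resistant A498 against parental 786-O (-0.10), and the difference of ABCA2 (0.40, or 0.41 with the block), ABCA3 (0.17) and ABCC10 (0.30). Without this correction the difference of ABCA2 was -0.38 (edgeR adjusted p = 0.073), and -0.57 without replicate 2 of resistant 786-O (adjusted p = 1.5e-10). With the test of the study on raw counts they were ABCB9 in 786-O (0.02), ABCA5 (-0.12), ABCA13 (-0.12), ABCD3 (-0.11) and ABCD4 (-0.03) in A498, ABCB1 between the parental lines (0.08), and, in resistant A498 against parental 786-O, ABCA3 (-0.26), ABCB6 (-0.35), ABCC1 (-0.40), ABCC3 (-0.12), ABCC4 (-0.70), ABCC5 (-0.37), ABCC11 (-0.33) and ABCD4 (-0.09). That test does not scale counts to library totals. Those of resistant A498 (20042519 to 25831163) were below those of parental 786-O (40845091 to 47972092). Thinning gave -0.04 for ABCA13 and 0.26 for ABCB4 in 786-O. Library size alone gave 0.03 for ABCB10 in A498, and 0.13 for ABCA1 and 0.05 for ABCB1 in resistant A498 against parental 786-O. No filter gave 0.00 for ABCB10. ABCA1 in resistant A498 against parental 786-O was 0.01 with DESeq2 size factors, the DESeq2 test or 2 groups alone, and 0.02 with at least 10 counts in every library. Leaving out 1 library moved ABCA13 from -0.12 to 0.33 and ABCB4 from -0.68 to 0.24 in 786-O, ABCA5 from -0.01 to 0.15, ABCA13 from -0.19 to 0.23 and ABCB10 from -0.05 to 0.02 in A498, and, in resistant A498 against parental 786-O, ABCA1 from -0.09 to 0.02 and ABCB4 from -0.76 to 0.17.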
